A study of Homo sapiens with 12 samples.

Results

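The ATF4 amino acid response genes are a named set of 40 genes, made up of the transcription factor ATF4, factors that act with it or after it, and genes it is known to switch on. All 40 were found among the 63129 gene IDs of the expression table, each by its symbol, on a primary chromosome and, where a symbol had several rows, in the row with the highest mean. The set was proposed with earlier results of these data in view, and among these was a difference between the GSK343-treated libraries. Values from that treatment are therefore given as a description with no test.

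The study sequenced RNA from KARPAS-422, Pfeiffer and RL, established human lines of diffuse large B cell lymphoma with a germinal centre B cell (GCB) profile. EZH2, the histone H3K27 methyltransferase, carries a mutation that activates its SET domain in all 3 lines, so no group has unmutated EZH2. According to the labels, EZH2 inhibition changes the phenotype of KARPAS-422 and Pfeiffer, and RL does not respond. The treated groups were KARPAS-422 with 1.5 µM CPI-169 (3 libraries) and Pfeiffer with 1.5 µM GSK343 (2 libraries), both EZH2 inhibitors. The vehicle groups, with 0.1% DMSO, were RL (2 libraries), KARPAS-422 (3 libraries) and Pfeiffer (2 libraries). Every culture ran for 4 days from seeding, in the same medium with serum. Each drug was used in 1 line only, so drug and line cannot be told apart, and each responder class is 1 or 2 lines. The labels do not say that replicates were separate cultures, so the p-values rest on a spread between libraries that could be purely technical.

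ATF4 is the main effector of the integrated stress response. When amino acids run short, uncharged tRNA activates the kinase GCN2, which phosphorylates the translation factor eIF2; the kinase PERK does the same when unfolded protein builds up in the endoplasmic reticulum. General translation then slows while the ATF4 mRNA is translated more, so its mRNA level is not a measure of the ATF4 protein. ATF4 pairs with C/EBP factors on composite DNA elements and raises genes for amino acid import, amino acid synthesis, mitochondrial one-carbon metabolism and tRNA charging, together with feedback and stress effectors.

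The composite element is often written TGATGNAA (reverse complement TTNCATCA), and windows from 250 bases before to 50 bases after each RefSeq gene start (GRCh38.p14) were searched for these letters on both strands. Of the 40 genes, 34 had a window; NUPR1, PSPH, GPT2, SHMT2, ALDH1L2 and SLC7A11 are named only. At least 1 match lay in the windows of 13 of the 34 (38.2%), against 1217 of 27305 genes in the whole RefSeq table (4.46%). Genes can have several starts: counted by window, 15 of 57 windows of the set held a match, against 1270 of 35116 in the table. The form TGATGCAA (reverse complement TTGCATCA), which is contained in the first, was found for 8 of the 34 (23.5%), against 295 of 27305 genes (1.08%). A match is a string of letters and not a measured binding site. The set was made up of ATF4, its partners and its known targets, so an excess of this element is not independent support for it. Matches in SLC3A2, SLC7A1, SLC1A4, NARS and MARS lay within or beyond the start of the transcript. The other 8 genes had theirs before the start and are shown so that the letters can be set beside their values with CPI-169. Each line gives 40 bases 5′ to 3′ in the direction of the gene, with the match in capitals; distances are to the nearest RefSeq start of the gene.
ATF3, chr1:212565200-212565239, plus strand, 184 bases before the start: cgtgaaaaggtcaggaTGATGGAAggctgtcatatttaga
CHAC1, chr15:40953246-40953285, plus strand, 202 bases before the start: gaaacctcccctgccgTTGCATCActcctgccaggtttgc
ASNS, chr7:97872453-97872492, minus strand, 61 bases before the start: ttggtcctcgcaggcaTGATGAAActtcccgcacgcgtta
CEBPG, chr19:33374055-33374094, plus strand, 35 bases before the start: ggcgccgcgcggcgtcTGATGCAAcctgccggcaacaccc
MTHFD1L, chr6:150866341-150866380, plus strand, 83 bases before the start: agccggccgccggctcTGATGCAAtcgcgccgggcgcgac
AARS (AARS1 in RefSeq), chr16:70289670-70289709, minus strand, 180 bases before the start: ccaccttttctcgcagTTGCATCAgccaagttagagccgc
SLC1A5, chr19:46784888-46784927, minus strand, 90 bases before the start: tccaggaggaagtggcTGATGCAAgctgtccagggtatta
GARS (GARS1 in RefSeq), chr7:30594829-30594868, plus strand, 26 bases before the start: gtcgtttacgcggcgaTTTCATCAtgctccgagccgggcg

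Expression is given as FPKM, fragments per transcript length and library total, which allows levels of different genes to be set side by side. Between 13974 and 16357 genes reached 1 FPKM per library. Read counts were not used here and the absolute depth is unknown; estimated from the steps between the lowest values, depth differed between libraries of 1 line by a factor of 0.653 to 1.32 from the first DMSO library. The 7 B cell markers examined (MS4A1, CD79A, CD79B, PAX5, CD22, BCL6 and MME) reached 1 FPKM in every group. Their summed level was 1622 to 1729 FPKM in KARPAS-422 with CPI-169 and 1853 to 2020 FPKM with DMSO, 2313 to 2582 FPKM in Pfeiffer with GSK343 and 2684 to 2744 FPKM with DMSO, and 1981 to 1990 FPKM in RL. Of 17 markers of T, NK, myeloid, epithelial, stromal and endothelial cells, at most 4 reached 1 FPKM in any group. Their summed level was 57.1 to 64.8 FPKM in KARPAS-422 with CPI-169 and 36.4 to 38.4 FPKM with DMSO, 58.7 to 80.7 FPKM in Pfeiffer with GSK343 and 141.5 to 142.3 FPKM with DMSO, and 5.71 to 5.94 FPKM in RL. The T cell gene CD3G, at up to 55.2 FPKM, led these in KARPAS-422 with CPI-169, and the epithelial gene EPCAM, at up to 135 FPKM, led them in Pfeiffer with DMSO. CD3D and CD68 also reached 1 FPKM in both KARPAS-422 groups, and NKG7 did with CPI-169. KRT8, KRT18 and COL1A1 reached it in both Pfeiffer groups, and CD3E did in RL. CD2, GNLY, LYZ, CSF1R, CD14, KRT19, COL1A2 and VWF stayed under 1 FPKM in every group. The part of these markers in the results was not tested. In bulk RNA, fewer expressing cells and less RNA per cell cannot be told apart.

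A minimum of 1 FPKM in 2 or more libraries was met by 38 of the 40 genes and by 18731 genes in all. NUPR1, a stress-induced chromatin protein, and ALDH1L2, a mitochondrial folate enzyme, did not pass: neither exceeded 0.356 FPKM in any library. The other 38 were mostly abundant. ATF5 and ATF4 had the highest means over the 12 libraries, 351.7 and 297 FPKM, followed by the tRNA synthetase WARS at 231.1 FPKM and MTHFD2 at 222.8 FPKM. The lowest means among the 38 were those of ATF3 at 3.037 FPKM and STC2 at 3.928 FPKM.

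**Figure D1:**
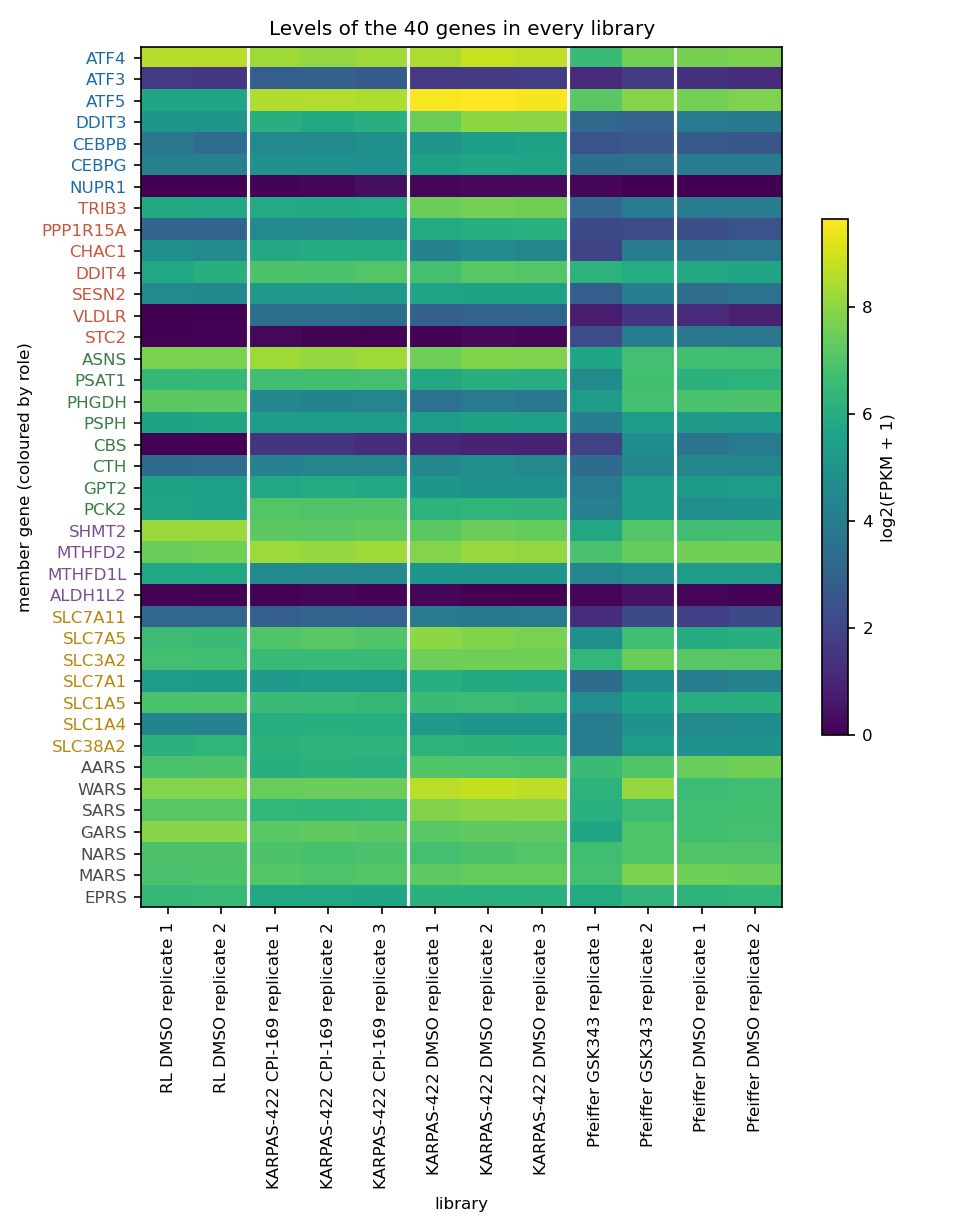
Levels of the 40 genes in each of the 12 libraries, as log2(FPKM + 1) in colour, with genes in rows coloured by role and libraries in columns. ATF4, ATF5, ASNS, MTHFD2 and WARS were among the brightest rows, NUPR1 and ALDH1L2 were dark throughout, and the column of GSK343 replicate 1 was darker than its neighbours for most genes.

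With CPI-169 in KARPAS-422 the genes did not move together. Of the 38, 10 were higher with CPI-169 than with DMSO, 19 were lower and 9 were not called, at an adjusted p under 0.05 in limma. Over all 18731 genes tested 62.0% were called, 31.1% higher and 30.8% lower, so a call by itself was common. The median log2 fold change was -0.19 over the 38 and 0.008 over all genes tested. For each of the 29 genes called, the CPI-169 libraries lay wholly above (10) or wholly below (19) the DMSO libraries, as they did for 33.1% and 31.8% of all genes; for the 9 others the libraries overlapped. With the GSK343 libraries included in the fit, 5 of the 38 were called higher and 13 lower, against 26.9% and 27.3% of all genes. The gap between the GSK343 libraries enters every standard error of that fit. A call lost there therefore says nothing by itself about the spread within KARPAS-422.

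Among the transcription factors, ATF3 was higher and the other 5 tested were lower, where 31.1% of all genes were higher and 30.8% lower. ATF4 (chr22:39915700-39918691, hg19) stood at 308, 267 and 305 FPKM with CPI-169, against 350, 448 and 422 FPKM with DMSO. All CPI-169 libraries were below all DMSO libraries, with a log2 fold change of -0.47 ± 0.10 (SE; limma, adjusted p = 0.00348). That call was lost with all 12 libraries in the fit (adjusted p = 0.0936, limma). DDIT3 encodes CHOP, a factor that promotes cell death under prolonged stress, and lies at chr12:57910371-57914300. It was the most reduced of the 38, at 65.6, 56.6 and 67.4 FPKM with CPI-169, against 178, 253 and 250 FPKM with DMSO. Its mean was 3.59-fold lower (log2 fold change -1.81 ± 0.13; limma, adjusted p = 2.01e-06). Its 3′ end overlaps the locus of MARS by 982 bases, and how strand was counted is not given in the sources used here.

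ATF5, a relative of ATF4 that is translated in a similar way, was the most abundant of the factors in KARPAS-422. It had 353, 364 and 352 FPKM with CPI-169, against 735, 794 and 732 FPKM with DMSO, and every CPI-169 library was below every DMSO library (log2 fold change -1.08 ± 0.07; limma, adjusted p = 1.07e-06). The C/EBP partners moved the same way: CEBPG had a log2 fold change of -0.70 ± 0.05 and CEBPB one of -0.66 ± 0.15, with adjusted p of 2.97e-06 and 0.00425 (limma). ATF3, a stress-induced repressor that is itself an ATF4 target, was low in all libraries but went up. It had 6.44, 7.02 and 5.96 FPKM with CPI-169, against 2.06, 2.21 and 2.48 FPKM with DMSO, a mean 2.88-fold higher with no overlap (log2 fold change 1.20 ± 0.08; limma, adjusted p = 1.86e-06).

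The feedback and stress effectors split in the same way, with 2 higher, 3 lower and 2 not called of 7. The shares over all genes were 31.1% higher and 30.8% lower. TRIB3, a pseudokinase that binds and restrains ATF4 and CHOP, fell. It had 58.1, 57.2 and 58.2 FPKM with CPI-169, against 175, 195 and 185 FPKM with DMSO (log2 fold change -1.66 ± 0.05; limma, adjusted p = 2.29e-08). PPP1R15A (GADD34), the subunit that directs a phosphatase to eIF2 and ends the response, fell as well, to 23.3, 22.5 and 23.9 FPKM with CPI-169, against 58.4, 65.8 and 68.4 FPKM with DMSO (log2 fold change -1.43 ± 0.07; limma, adjusted p = 1.92e-07). SESN2, a stress-induced leucine sensor that inhibits mTORC1, fell by 0.39 ± 0.05 on the log2 scale (limma, adjusted p = 9.38e-05; 0.178 with all 12 libraries fitted).

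CHAC1, which degrades glutathione, went the other way. It had the largest increase of the 38 on the log2(FPKM + 1) scale, which understates the change of low genes; in FPKM its mean was 2.79-fold higher, against 2.88-fold for ATF3. Its levels were 55.8, 60.2 and 59.8 FPKM with CPI-169, against 18.8, 24.1 and 20.1 FPKM with DMSO, and every CPI-169 library was far above every DMSO library (log2 fold change 1.44 ± 0.09; limma, adjusted p = 1e-06). VLDLR, a lipoprotein receptor that ATF4 raises under stress, was higher by 0.39 ± 0.08 on the log2 scale (limma, adjusted p = 0.00164; 0.0633 with all 12 libraries fitted). DDIT4 (REDD1), an mTORC1 inhibitor, had 121, 119 and 131 FPKM with CPI-169, against 110, 139 and 132 FPKM with DMSO, and was not called. STC2, a secreted glycoprotein, was at most 0.163 FPKM in every KARPAS-422 library.

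The amino acid synthesis genes were the one group in which most members rose: 6 of 8 were higher, 1 was lower and 1 was not called. Over all genes 31.1% were higher. The median log2 fold change of the group was 0.56. Most of its higher calls were lost with all 12 libraries fitted, as given below. That fit takes in the gap between the GSK343 libraries, which had a median of -1.29 for this group. It therefore cannot tell whether the CPI-169 differences are unstable in KARPAS-422. ASNS, PSAT1 and PHGDH each kept their call in 18 of 19 alternatives and lost it in that fit only. ASNS, asparagine synthetase (chr7:97481430-97501854, hg19), had 302, 272 and 303 FPKM with CPI-169, against 181, 223 and 217 FPKM with DMSO. The groups did not overlap, and the log2 fold change was 0.50 ± 0.09 (limma, adjusted p = 0.000758). PSAT1, the aminotransferase of serine synthesis, had 105, 104 and 110 FPKM with CPI-169, against 54.7, 66.2 and 63 FPKM with DMSO (log2 fold change 0.79 ± 0.07; limma, adjusted p = 7.86e-06). GPT2, the mitochondrial alanine aminotransferase, had 52, 59.5 and 55.3 FPKM with CPI-169, against 32, 29.2 and 27.5 FPKM with DMSO, and was the most raised of the group (log2 fold change 0.89 ± 0.07; limma, adjusted p = 5.05e-06).

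PCK2, the mitochondrial PEP carboxykinase, and PHGDH, the first enzyme of serine synthesis, were higher by 0.76 ± 0.06 and 0.62 ± 0.07 on the log2 scale (limma, adjusted p = 4.46e-06 and 6.71e-05). CBS, the first enzyme of transsulfuration, was near the minimum of 1 FPKM in KARPAS-422, at 1.72, 1.81 and 1.32 FPKM with CPI-169, against 1.09, 0.899 and 0.929 FPKM with DMSO (log2 fold change 0.41 ± 0.09; limma, adjusted p = 0.00433). After quantile normalization CBS was no longer called (limma, adjusted p = 0.0878). CTH, the next enzyme of that pathway, fell by 0.25 ± 0.07 (limma, adjusted p = 0.0139), a call that ended without CPI-169 replicate 1 (limma, adjusted p = 0.0532) and after quantile normalization (limma, adjusted p = 0.0952). PSPH, the last enzyme of serine synthesis, was not called (log2 fold change -0.12 ± 0.06), but was called lower without DMSO replicate 1 and after median scaling (limma, adjusted p = 0.00877 and 0.0202). With all 12 libraries fitted, ASNS, PSAT1, PHGDH, CBS and CTH were not called (limma, adjusted p = 0.0682, 0.105, 0.0692, 0.549 and 0.328). Of the group, GPT2 and PCK2 alone stayed called higher in that fit, where 26.9% of all genes were higher.

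Of the 3 mitochondrial one-carbon enzymes tested, MTHFD1L fell and the others were not called, where 30.8% of all genes fell. MTHFD2, which oxidizes the folate-bound carbon unit, had 297, 277 and 303 FPKM with CPI-169, against 230, 281 and 266 FPKM with DMSO, and SHMT2, which takes that unit from serine, had 147, 142 and 152 FPKM against 145, 175 and 161 FPKM. Both overlapped between the groups and neither was called (log2 fold changes 0.18 ± 0.08 and -0.12 ± 0.07). Without DMSO replicate 2 MTHFD2 was called higher (limma, adjusted p = 0.0377), and without DMSO replicate 1 SHMT2 was called lower (limma, adjusted p = 0.0192), as it was after quantile normalization and median scaling (limma, adjusted p = 0.0216 and 0.0234). MTHFD1L, the last enzyme of the mitochondrial branch, fell to 22.6, 22.4 and 22.7 FPKM with CPI-169, against 32.8, 33.3 and 31.3 FPKM with DMSO (log2 fold change -0.51 ± 0.04; limma, adjusted p = 4.45e-06).

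Of the 7 amino acid transporters, 4 fell, 1 rose and 2 were not called, where 30.8% of all genes fell and 31.1% rose. SLC3A2, the heavy chain that carries several light-chain transporters to the membrane, had 92.4, 94.1 and 91.1 FPKM with CPI-169, against 182, 187 and 184 FPKM with DMSO. Its light chains in the set, SLC7A5 and SLC7A11, were lower too. The leucine importer SLC7A5 (LAT1) had 130, 143 and 130 FPKM with CPI-169, against 252, 224 and 206 FPKM with DMSO, and the cystine importer SLC7A11 (xCT) had 6.53, 7.51 and 7.23 FPKM with CPI-169, against 15.2, 14 and 14.2 FPKM with DMSO. No library of these 3 genes overlapped between the groups, and the log2 fold changes were -0.99 ± 0.05, -0.75 ± 0.08 and -0.94 ± 0.09 (limma, adjusted p = 2.35e-07, 4.11e-05 and 1.19e-05). SLC7A1 (CAT1), the arginine and lysine importer, had 36, 41.6 and 38.4 FPKM with CPI-169, against 65.7, 57 and 55.7 FPKM with DMSO (log2 fold change -0.61 ± 0.08; limma, adjusted p = 0.000126). With all 12 libraries fitted, SLC7A5 and SLC7A1 were not called (limma, adjusted p = 0.0961 and 0.0586).

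SLC1A4 (ASCT1), a carrier of alanine, serine and cysteine, was the transporter that rose, to 63.2, 65.3 and 63.3 FPKM with CPI-169, against 35.4, 33.3 and 32 FPKM with DMSO (log2 fold change 0.91 ± 0.05; limma, adjusted p = 7.01e-07). Its relative SLC1A5 (ASCT2), the glutamine importer, had 93, 91.6 and 83.9 FPKM with CPI-169, against 92.8, 96.1 and 88.4 FPKM with DMSO, and was not called (log2 fold change -0.05 ± 0.06). SLC38A2 (SNAT2), a sodium-coupled importer of neutral amino acids, was not called either (log2 fold change 0.07 ± 0.05).

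None of the 7 tRNA synthetases, which charge tRNAs with their amino acid, was higher: 5 fell and 2 were not called. The shares over all genes were 31.1% higher and 30.8% lower. SARS, for serine, had 83.2, 79.8 and 82.4 FPKM with CPI-169, against 221, 245 and 247 FPKM with DMSO (log2 fold change -1.52 ± 0.06; limma, adjusted p = 6.56e-08). WARS, for tryptophan, which is also an interferon-gamma target, had 169, 171 and 178 FPKM with CPI-169, against 394, 436 and 413 FPKM with DMSO (log2 fold change -1.26 ± 0.06; limma, adjusted p = 2.49e-07). In both cases the CPI-169 libraries lay close together and far below the DMSO libraries. AARS, for alanine, had 66.9, 71.1 and 68.2 FPKM with CPI-169, against 127, 124 and 118 FPKM with DMSO (log2 fold change -0.83 ± 0.06; limma, adjusted p = 2.21e-06).

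EPRS, for glutamate and proline, fell by 0.43 ± 0.05 on the log2 scale (limma, adjusted p = 4.29e-05). MARS, for methionine, had 135, 127 and 132 FPKM with CPI-169, against 151, 162 and 163 FPKM with DMSO (log2 fold change -0.27 ± 0.06; limma, adjusted p = 0.00181), and was not called with all 12 libraries fitted (limma, adjusted p = 0.252). GARS, for glycine, had 144, 153 and 147 FPKM with CPI-169, against 144, 156 and 150 FPKM with DMSO, and together with NARS, for asparagine, showed no call (log2 fold changes -0.02 ± 0.06 and -0.03 ± 0.07). Of the 13 genes with a promoter match, ATF3, CHAC1, ASNS and SLC1A4 were higher, and SLC1A5, GARS and NARS were not called. The others, CEBPG, MTHFD1L, AARS, SLC3A2, SLC7A1 and MARS, were lower. Over all genes, 31.1% were higher and 30.8% lower, and a link between match and direction was not tested.

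**Figure D2:**
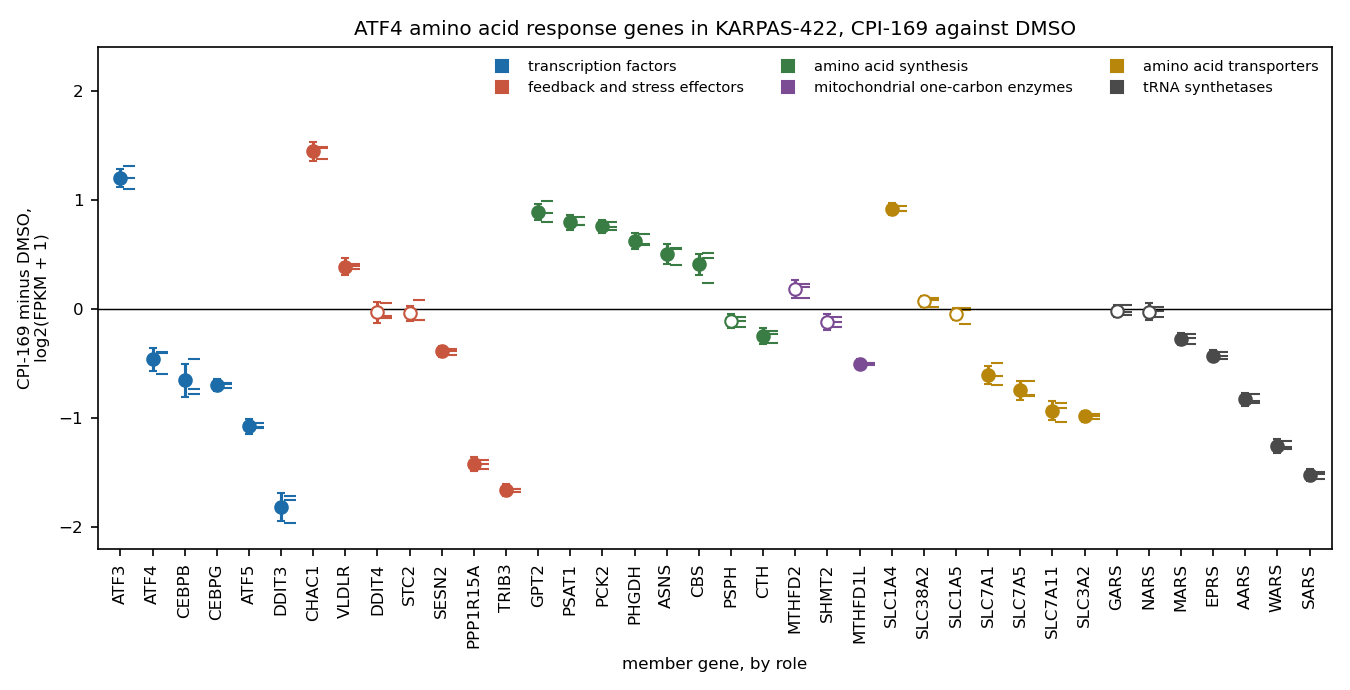
Difference between CPI-169 and DMSO in KARPAS-422 for the 38 tested genes, in log2(FPKM + 1), grouped by role: circles are the fitted fold changes with bars of 1 SE, filled where called, and the short ticks are the 3 CPI-169 libraries minus the DMSO mean. CHAC1 at 1.44 and ATF3 at 1.20 were the highest, DDIT3 at -1.81 and TRIB3 at -1.66 the lowest, and all but PSPH and CTH of the synthesis genes lay above 0.

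Other genes of the same pathway, outside the 40, also went in both directions. Of 20 further ATF4 targets tested, 6 were higher, 8 lower and 6 not called, where 31.1% of all genes were higher and 30.8% lower, and their median log2 fold change was 0.02. JDP2, a repressor of the AP-1 family, stood at 17.1, 15.7 and 15.4 FPKM with CPI-169, against 3.26, 2.81 and 2.99 FPKM with DMSO, while GOT1, the cytosolic aspartate aminotransferase, stood at 56, 53 and 55.2 FPKM with CPI-169, against 173, 197 and 196 FPKM with DMSO (log2 fold changes 2.09 ± 0.06 and -1.76 ± 0.07; limma, adjusted p = 2.01e-08 and 7.05e-08). Among 16 genes of the eIF2 kinases, the eIF2 phosphatase and the exchange factor eIF2B, 5 were higher and 8 lower. EIF2B2, a subunit of eIF2B, fell by 1.38 ± 0.07 and the kinase EIF2AK3 (PERK) was higher by 0.48 ± 0.05 (limma, adjusted p = 2.39e-07 and 2.53e-05). Of 21 genes for amino acid sensing by mTORC1, 7 were higher and 7 lower. SESN3, a sestrin like SESN2, was higher by 1.23 ± 0.07 (limma, adjusted p = 4.74e-07), the opposite direction to SESN2.

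Of 11 other cytosolic synthetases and their scaffold proteins, 2 were higher and 6 lower (median -0.33), and of 17 mitochondrial synthetases 5 were higher and 5 lower (median -0.10). Over all genes 31.1% were higher and 30.8% lower. The synthetases IARS, TARS, YARS and CARS, counted above among the further ATF4 targets, were lower, from -0.83 for IARS to -0.40 for CARS on the log2 scale. LARS, also counted there, was not called. Cytosolic folate and glycine cleavage genes had 6 of 10 higher and 1 lower (median 0.45), among them TYMS, thymidylate synthase, at 0.80 ± 0.06 (limma, adjusted p = 2.04e-06). Genes of the unfolded protein response in the endoplasmic reticulum had 4 of 14 higher and 8 lower (median -0.35). In the same libraries all 18 interferon-stimulated genes and all 15 cholesterol synthesis genes tested were higher (medians 2.37 and 1.07), MYC was higher by 0.96 ± 0.06 and EZH2 fell by 0.20 ± 0.05 (limma, adjusted p = 1.41e-06 and 0.00519). Of the markers of other cell types 9 were tested, and 5 of them were higher and none lower. Among the higher were the macrophage gene CD68 at 1.51 ± 0.20 and the cytotoxic granule gene NKG7 at 1.02 ± 0.09 (limma, adjusted p = 0.000114 and 6.66e-06). Those not called, EPCAM, KRT8, KRT18 and COL1A1, were under 1 FPKM in both KARPAS-422 groups, which leaves little room for a lower call. CD3E was also under 1 FPKM in both groups, and NKG7 was with DMSO. The part of any of these genes or gene groups in the levels of the 38 genes was not tested.

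With GSK343 in Pfeiffer the treated libraries gave different pictures, so each is given alone. In replicate 1, 37 of the 38 genes lay below both DMSO libraries and 1, DDIT4, lay above both, and the median difference from the DMSO mean was -0.77 on the log2 scale. Over all 18731 genes 52.2% lay below both and 32.7% above both in that library, with a median of -0.077. In replicate 2, 24 of the 38 lay above both DMSO libraries and 12 below both, with a median of 0.17, against 44.4% and 44.5% of all genes and a median of 0.000. Replicate 1 was lower than replicate 2 for 36 of the 38, and for 57.9% of all genes. For 19 of the 36 the gap was at least 1 in log2(FPKM + 1), which understates changes of low genes. The share of all genes with such a gap was not counted. These are the values that were known when the set was proposed, so nothing is read from them beyond the levels.

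The factors had the narrowest gap between the GSK343 libraries of the 6 roles, with a median of -0.33 for replicate 1 minus replicate 2 on the log2 scale. ATF4 had 93.6 FPKM in GSK343 replicate 1 and 195 FPKM in replicate 2, against 200 and 211 FPKM with DMSO, so only replicate 1 stood far from the DMSO libraries. ATF5 had 142 and 233 FPKM with GSK343, against 197 and 217 FPKM with DMSO. DDIT3 was lower in both GSK343 libraries, at 8.25 and 7.13 FPKM, against 14.4 and 13.9 FPKM with DMSO, and was 1 of the 2 genes for which replicate 1 was not below replicate 2, with DDIT4 the other. ATF3 had 1.25 and 2.11 FPKM with GSK343, against 1.6 and 1.34 FPKM with DMSO, with replicate 1 below and replicate 2 above the DMSO libraries.

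The feedback and stress effectors had a median gap of -0.77, and 2 of them, CHAC1 and STC2, were among the widest of the set. CHAC1 had 2.91 FPKM in replicate 1 and 16.1 FPKM in replicate 2, against 11.6 and 12.7 FPKM with DMSO. STC2 had 3.59 and 16.4 FPKM with GSK343, against 13.6 and 12.9 FPKM with DMSO. In both genes replicate 1 was far below the DMSO libraries and replicate 2 slightly above them. TRIB3 had 8.11 and 14.3 FPKM with GSK343, against 15.2 and 15.8 FPKM with DMSO, and DDIT4 had 74.4 and 60.9 FPKM, against 56.8 and 51 FPKM.

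The synthesis genes had the widest median gap, -1.29, and all 8 were at least 2-fold lower in GSK343 replicate 1 than in replicate 2. CBS had the widest gap of the 38, with 2.67 and 24.5 FPKM in GSK343 replicates 1 and 2, against 12.2 and 14.7 FPKM with DMSO, so replicate 2 held 9.18 times the level of replicate 1. PSAT1 had 23.4 and 103 FPKM with GSK343, against 72.9 and 74.2 FPKM with DMSO, and ASNS had 50.2 and 107 FPKM, against 105 and 103 FPKM. The serine pathway was thus low in replicate 1 at every step, PHGDH at 39.5 FPKM and PSPH at 16.2 FPKM included, against DMSO levels of 116 and 123 FPKM for PHGDH and 35.3 and 34.5 FPKM for PSPH. GPT2 had 14.2 and 41.7 FPKM with GSK343, against 36.6 and 40.7 FPKM with DMSO.

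SHMT2, the one-carbon enzyme next to serine, had 54.3 and 132 FPKM with GSK343, against 101 and 106 FPKM with DMSO. MTHFD2 had 115 and 162 FPKM with GSK343, against 190 and 192 FPKM with DMSO, and MTHFD1L had 20.2 and 25.2 FPKM, against 39.4 and 38.9 FPKM, so both GSK343 libraries were below the DMSO libraries for these. Among the transporters, whose median gap was -1.04, SLC7A5 had 26.7 and 102 FPKM with GSK343, against 59.2 and 66.4 FPKM with DMSO. Its heavy chain SLC3A2 had 82 and 170 FPKM, against 138 and 138 FPKM, SLC7A1 had 9.52 and 24.8 FPKM, against 16 and 18.4 FPKM, and SLC7A11 had 1.39 and 3.46 FPKM, against 2.48 and 3.34 FPKM. In all 4 the DMSO libraries lay between the GSK343 libraries.

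The synthetases showed the highest single value of a GSK343 library relative to DMSO. WARS had 74.6 FPKM in GSK343 replicate 1 and 277 FPKM in replicate 2, against 97.4 and 102 FPKM with DMSO, or 2.78 times the DMSO mean in replicate 2. GARS had 49.1 and 125 FPKM with GSK343, against 103 and 107 FPKM with DMSO, MARS had 107 and 212 FPKM, against 179 and 179 FPKM, and SARS had 68.1 and 95.1 FPKM, against 101 and 103 FPKM. Of the 11 other cytosolic synthetases and scaffold proteins, 5 were lower in replicate 1 than in replicate 2. The medians of the 11 were -0.21 in replicate 1 and -0.32 in replicate 2. The synthetases IARS, LARS, TARS, YARS and CARS, counted among the further ATF4 targets, were all lower in replicate 1 than in replicate 2. Their gaps ran from -0.21 for IARS to -1.18 for YARS on the log2 scale.

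**Figure D3:**
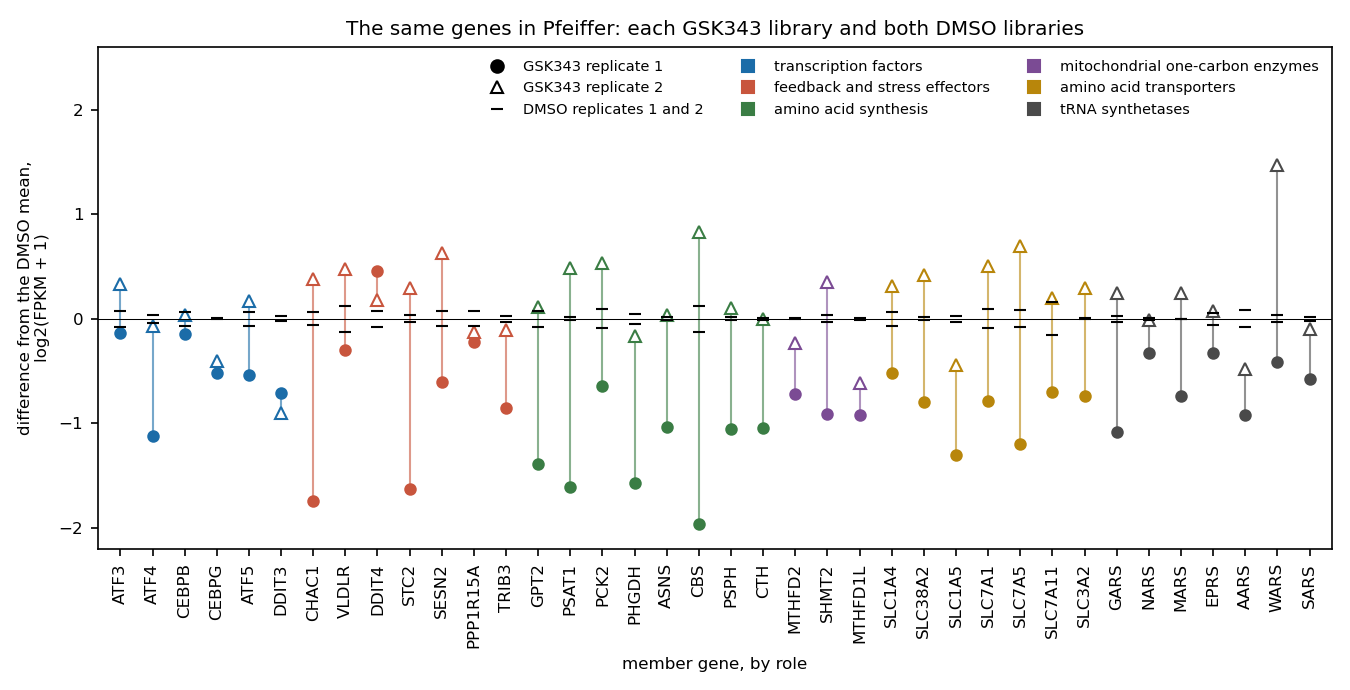
The 38 genes in Pfeiffer, as the difference from the mean of the DMSO libraries in log2(FPKM + 1): filled circles are GSK343 replicate 1, open triangles GSK343 replicate 2 and short ticks the DMSO libraries. The circles lie below 0 for all genes but DDIT4, and the triangles lie on both sides, from -0.90 for DDIT3 to 1.47 for WARS.

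Other groups of genes also differed between the GSK343 libraries. The 18 interferon-stimulated genes had medians of 2.30 in replicate 1 and 0.35 in replicate 2, and the 15 cholesterol synthesis genes had -0.18 and -1.15. The 20 further ATF4 targets had medians of -0.46 and 0.07, and the unfolded protein response genes -0.11 and -0.70. MYC had 66.9 and 105 FPKM with GSK343, against 73.3 and 78.1 FPKM with DMSO, and EZH2 had 13.8 and 20.9 FPKM, against 31.6 and 30.8 FPKM. The 7 B cell markers had medians of -0.14 in replicate 1 and -0.24 in replicate 2, but single markers were far apart between the libraries. BCL6, a repressor that maintains germinal centre B cells, stood at -0.22 and 1.31 on the log2 scale and the B cell receptor inhibitor CD22 at -0.28 and 1.12, with replicate 1 the lower, while MS4A1 (CD20) stood at 0.06 and -0.69, with replicate 1 the higher. Over all tested genes the GSK343 libraries correlated with a Pearson r of 0.9700 and differed by a root mean square of 0.497 on the log2 scale, against 0.9961 and 0.185 for the DMSO libraries of Pfeiffer. Cells were lysed in Trizol or in RLT buffer and the labels do not say which library had which. The part of these in the gap between the libraries was not tested.

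**Figure D4:**
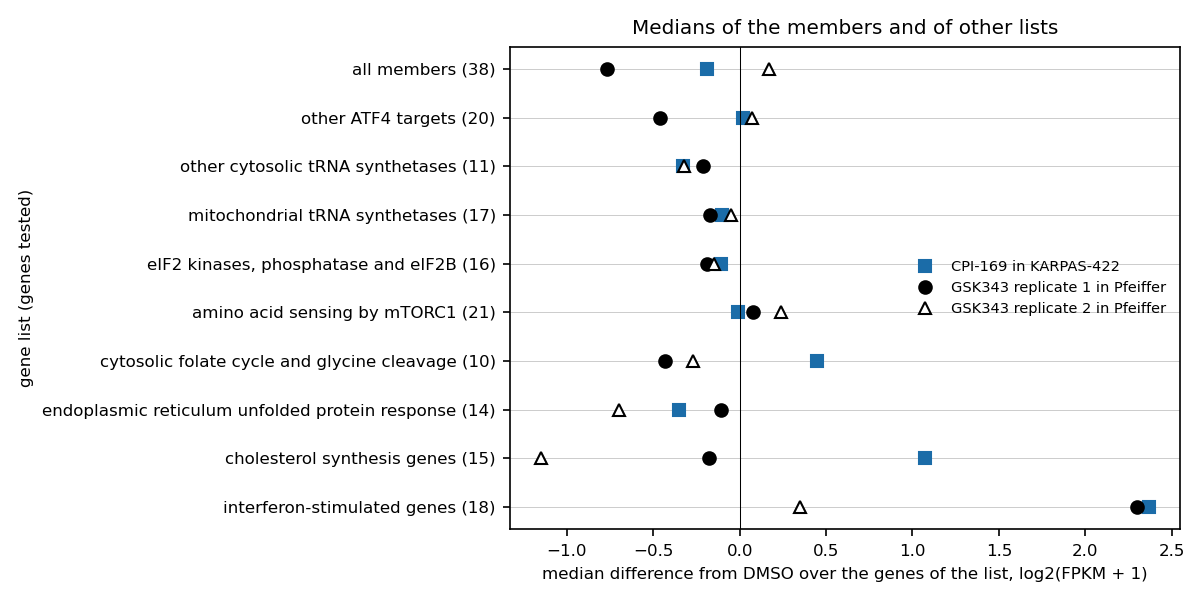
Median log2 difference from DMSO, in log2(FPKM + 1), for the 38 genes and for other lists, with the number of genes tested in brackets: squares are CPI-169 in KARPAS-422, filled circles GSK343 replicate 1 and open triangles GSK343 replicate 2 in Pfeiffer. The 38 genes had medians of -0.19, -0.77 and 0.17 in these, and the interferon-stimulated genes 2.37, 2.30 and 0.35.

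The level of these genes before treatment differed widely between the lines. Of the 38, 21 had their highest mean DMSO level in KARPAS-422, 12 in RL and 5 in Pfeiffer. The same count was not made over all genes, so it is not read as a trait of the set. Between RL and KARPAS-422, 9 were higher in RL and 21 lower, where 72.2% of all genes were called (36.6% higher, 35.6% lower). Between RL and Pfeiffer, 25 were higher in RL and 9 lower, where 79.5% were called (38.4% higher, 41.1% lower). Between KARPAS-422 and Pfeiffer, 27 were higher in KARPAS-422 and 8 lower, where 86.6% were called (41.5% higher, 45.1% lower). With all 12 libraries fitted, 5 were higher in RL than in KARPAS-422 (33.6% of all genes), and 5 were lower in KARPAS-422 than in Pfeiffer (43.2% of all genes), which also was the count after quantile normalization. The 3 comparisons share libraries with each other and with the CPI-169 comparison, and each line is a single line with 2 or 3 libraries.

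KARPAS-422 had the highest mean of all 6 transcription factors tested and of 5 of the 7 feedback and stress effectors, again with no count over all genes beside it. DDIT3 had 32.4 and 30.5 FPKM in RL, with means of 31.48 FPKM there, 227.1 FPKM in KARPAS-422 and 14.17 FPKM in Pfeiffer, which is 16-fold more in KARPAS-422 than in Pfeiffer (log2 difference 3.89 ± 0.14; limma, adjusted p = 4.18e-09). TRIB3 had 56.4 and 53.2 FPKM in RL, and its mean was 11.9-fold higher in KARPAS-422 than in Pfeiffer (log2 difference 3.49 ± 0.06; limma, adjusted p = 2.14e-11). PPP1R15A averaged 7.916 FPKM in RL and was 15.3-fold higher in KARPAS-422 than in Pfeiffer (log2 difference 3.64 ± 0.07; limma, adjusted p = 8.12e-11). The order KARPAS-422, RL, Pfeiffer held for all 3, with no overlap of libraries between lines. After CPI-169 the KARPAS-422 levels of DDIT3 (56.6 to 67.4 FPKM) and TRIB3 (57.2 to 58.2 FPKM) were above those of Pfeiffer with DMSO.

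ATF4 itself had 375 and 389 FPKM in RL. It was not called between RL and KARPAS-422 (log2 difference -0.08 ± 0.12; limma, adjusted p = 0.561), and both stood above Pfeiffer, by 0.89 ± 0.13 in RL and by 0.97 ± 0.12 in KARPAS-422 (limma, adjusted p = 0.000126 and 2.67e-05). ATF5 went its own way: at 51.1 and 49.7 FPKM in RL it was lower there than in KARPAS-422 by a log2 difference of -3.87 ± 0.08 and lower than in Pfeiffer by -2.02 ± 0.08 (limma, adjusted p = 1.78e-10 and 1.61e-08). ASNS followed ATF4, with 207 and 208 FPKM in RL, close to KARPAS-422 (log2 difference 0.01 ± 0.10; limma, adjusted p = 0.952) and above Pfeiffer (0.99 ± 0.11; limma, adjusted p = 1.62e-05). NARS had no call in any of the 3 comparisons, with means of 122.3 FPKM in RL, 120.6 FPKM in KARPAS-422 and 126.8 FPKM in Pfeiffer.

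Several genes were nearly silent in 1 or 2 lines. VLDLR had 0.0177 and 0.0229 FPKM in RL, against 6.8 to 7.56 FPKM in KARPAS-422 and 0.861 to 1.21 FPKM in Pfeiffer. CBS had 0.0385 and 0.0158 FPKM in RL and 0.899 to 1.09 FPKM in KARPAS-422, against 12.2 and 14.7 FPKM in Pfeiffer, and STC2 had 0.0107 and 0.066 FPKM in RL and 0.0492 to 0.15 FPKM in KARPAS-422, against 12.9 and 13.6 FPKM in Pfeiffer. Both were thus highest in Pfeiffer, and both were among the furthest apart between the GSK343 libraries. PHGDH, in contrast, was low in KARPAS-422 alone. It had 145 and 146 FPKM in RL, against 11.2 to 14.1 FPKM in KARPAS-422 and 116 to 123 FPKM in Pfeiffer, or 11.4-fold more in RL than in KARPAS-422 (log2 difference 3.42 ± 0.08; limma, adjusted p = 6.72e-10).

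RL led in SHMT2, with a mean of 291 FPKM, against 160.3 FPKM in KARPAS-422 and 103.2 FPKM in Pfeiffer, and in GARS, with 243.2 FPKM, against 150.1 FPKM in KARPAS-422 and 105 FPKM in Pfeiffer. Both orders were called at each step (RL over KARPAS-422: log2 differences 0.86 ± 0.08 and 0.69 ± 0.06; limma, adjusted p = 6.92e-06 and 4.58e-06). The transporters were higher in KARPAS-422 than in Pfeiffer in all 7 cases, from 0.41 for SLC3A2 to 1.99 for SLC7A11 on the log2 scale. Of all genes, 86.6% were called in that comparison and 41.5% were higher in KARPAS-422. Against RL, KARPAS-422 had more of 5 of the 7 transporters, SLC1A5 was higher in RL, and SLC38A2 was not called. There 35.6% of all genes were lower in RL and 36.6% higher. WARS had 231 FPKM in both RL libraries, with 414.3 FPKM on average in KARPAS-422 and 99.6 FPKM in Pfeiffer, and was called between each pair of lines.

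The levels of further genes of the set in the RL libraries follow. CHAC1, at 27.3 and 23.8 FPKM in RL, was higher there than in KARPAS-422 by 0.27 ± 0.10 and than in Pfeiffer by 1.01 ± 0.11 on the log2 scale (limma, adjusted p = 0.0346 and 1.82e-05). ATF3, at 2.1 and 1.88 FPKM in RL, was low in every line, and DDIT4, at 54 and 64.2 FPKM, was lower in RL than in KARPAS-422 (-1.09 ± 0.11; limma, adjusted p = 1.3e-05) and was not called against Pfeiffer. PSAT1 had 84.4 and 85.8 FPKM and GPT2 45.5 and 44 FPKM in RL, both above KARPAS-422 (0.47 ± 0.08 and 0.58 ± 0.08; limma, adjusted p = 0.000355 and 0.000113). MTHFD2 had 178 and 184 FPKM in RL, below KARPAS-422 (-0.51 ± 0.09; limma, adjusted p = 0.000719), whereas MTHFD1L, at 53.5 and 53.1 FPKM, and SHMT2, at 290 and 292 FPKM, were above it. The RL libraries agreed closely for the transporters, with 95.2 and 94.1 FPKM for SLC7A5, 108 and 102 FPKM for SLC3A2, 38 and 37.3 FPKM for SLC7A1 and 8.18 FPKM in both for SLC7A11. The synthetases were as close, with 243 FPKM in both RL libraries for GARS, 140 and 139 FPKM for SARS and 115 and 118 FPKM for MARS, which was lower in RL than in KARPAS-422 (-0.44 ± 0.06; limma, adjusted p = 0.00012) and Pfeiffer (-0.61 ± 0.07; limma, adjusted p = 1.94e-05).

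**Figure D5:**
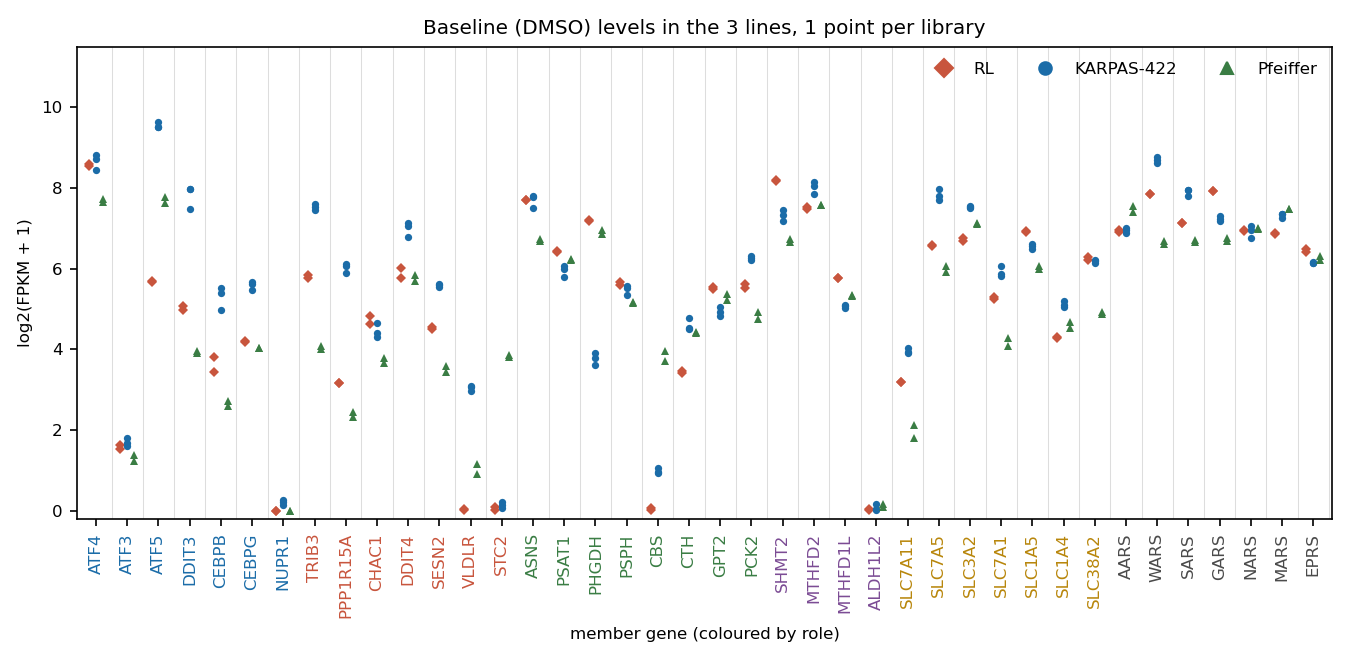
Level of each of the 40 genes with DMSO, in log2(FPKM + 1), with 1 point per library: diamonds are RL, circles KARPAS-422 and triangles Pfeiffer. KARPAS-422 stood highest for ATF5, DDIT3, TRIB3 and PPP1R15A, RL for SHMT2 and GARS, and Pfeiffer for CBS and STC2.

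Some levels are less certain because other loci overlap or resemble the gene. Rows named as pseudogenes carried up to 48 FPKM for ATF4 (ATF4P3), 53.4 FPKM for MTHFD2 (MTHFD2P7) and 21.3 FPKM for PSAT1 (PSAT1P3), so reads of those parents may be divided between rows. Within the MTHFD1L locus lies a row, RP1-292B18.1, with a mean of 115 FPKM, and ATF5 shares 1062 bases with NUP62, which had a mean of 34.1 FPKM.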

How the data were processed

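RNA of 12 libraries was analysed from 1 table in which the authors deposited FPKM values for 63129 Ensembl gene IDs. The submitters' processing notes name TopHat 1.4.1, Cufflinks and hg19; the annotation release and the strand setting were not given in the sources used here. Each value is relative to each library's total, so an abundant transcript lowers the rest, and the absolute depth is unknown. Groups and replicate numbers came from sample titles. The table's start positions count from 0 and were raised by 1.

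The 40 genes and the other gene lists were chosen with earlier results of these data known. Every list had at least 1 gene to test; SC5DL and PECAM1 had no usable row. One listed marker gene is not reported here. All 40 genes may be named; those given in every library are ATF4 and, in each role, the genes with the highest means, the largest CPI-169 fold changes and the largest gaps between GSK343 libraries, the top 2 of each. Of other lists, at most the 3 genes with the smallest adjusted p with CPI-169 are named for that comparison. The B cell markers are named as a list. The values given for BCL6, CD22 and EPCAM, and the markers named as reaching or staying under 1 FPKM, fall outside this rule. So do IARS, LARS, TARS, YARS, CARS, PYCR1, IMPACT and SLC6A9. All of these were chosen after they were seen.

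A minimum of 1 FPKM in 2 or more libraries and no missing value (77 rows had one) left 18731 genes. Values were set to log2(FPKM + 1), which understates changes of low genes. The 4 groups other than GSK343 (10 libraries) entered 1 limma fit with an intensity trend (limma 3.58.1, R 4.3.3), on 6 residual and 3.11 prior degrees of freedom. Adjustment was by Benjamini-Hochberg over all genes tested, with 0.05 as the threshold. The GSK343 libraries were left out because their gap was known when the genes were chosen and would enter every standard error. The fit was tested on simulated data. Alternatives were other pseudocounts, filters and scalings, the fit of all 12 libraries, KARPAS-422 alone, a replicate block, and leaving out each library. Promoter windows came from RefSeq (GRCh38.p14).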

Additional observations from a re-analysis of the deposited data

Results flagged for a closer look

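PHGDH, the first enzyme of serine synthesis, was the 1 gene of the set whose treated libraries lay wholly above the DMSO libraries in one line and wholly below them in the other. With CPI-169 in KARPAS-422 its log2 fold change was 0.62, and against the DMSO mean of Pfeiffer the GSK343 libraries stood at -1.57 and -0.17. Its CPI-169 call was lost with all 12 libraries fitted (limma, adjusted p = 0.0692). The share of all genes that lie on opposite sides in this way was not computed, and the GSK343 values were known when the set was proposed. MTHFD2 also differed in sign against the DMSO means, at 0.20, 0.10 and 0.23 in the CPI-169 libraries and -0.72 and -0.24 in the GSK343 libraries, but its CPI-169 libraries overlapped those with DMSO and it was not called there. Neither difference between the lines was tested, and drug and line changed together.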

How the results depend on the processing

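No call with CPI-169 changed direction under any alternative. With all 12 libraries fitted, 5 of the 38 genes were higher with CPI-169, 5 were higher in RL than in KARPAS-422, and 5 were lower in KARPAS-422 than in Pfeiffer (also 5 after quantile normalization). Without 1 library in turn, CPI-169 gave 10 to 11 genes higher and 18 to 21 lower.

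The median of GSK343 replicate 1 was -0.84 and -0.82 with pseudocounts of 0.1 and 0.5, -0.61 after quantile normalization and -0.68 after median scaling, and -0.84 to -0.74 against 1 DMSO library. That of replicate 2 was 0.27 after quantile normalization, with 6 genes below both DMSO libraries, and 0.11 to 0.21 against 1 DMSO library. The cause of these shifts was not tested.

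Of the genes not called, PSPH (0.00) and MTHFD2 (-0.03) changed sign after quantile normalization, DDIT4 (-0.13 to 0.04) and GARS (-0.05 to 0.01) without KARPAS-422 DMSO replicate 2, and NARS (-0.11 to 0.04) without DMSO replicate 3, where the ranges are over leaving out each library in turn.

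Deviations of same-numbered libraries of KARPAS-422 had correlations of -0.152, -0.252 and 0.156, and those of differently numbered libraries ran from -0.251 to 0.334. With so few libraries per group, these values cannot decide whether the numbers mark pairs. With the replicate number as a block in KARPAS-422 alone, CPI-169 gave 10 genes higher and 16 lower of the 38, against 25.4% and 24.6% of all genes, and ATF4, CTH and MARS were not called (limma, adjusted p = 0.0987, 0.059 and 0.0524). With the block in Pfeiffer, each GSK343 library against the DMSO library of its own number, GSK343 replicate 1 had a median of -0.74 and replicate 2 one of 0.11.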

Other observations

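Outside the set, 3 genes of the same pathway are given for their levels across lines or GSK343 libraries; they were chosen after their values were seen. PYCR1, the mitochondrial enzyme that completes proline synthesis and a known ATF4 target, had 0.338 to 0.523 FPKM in KARPAS-422 with CPI-169, against 0.191 to 0.579 FPKM with DMSO, and 78.6 and 77.6 FPKM in RL. In Pfeiffer it had 46.7 and 94.5 FPKM in GSK343 replicates 1 and 2, against 82.1 and 77.6 FPKM with DMSO, so that the DMSO libraries lay between them, as for many genes of the set. IMPACT, which binds GCN1 and restrains GCN2, was listed at 0 in both RL libraries and had 0.064 and 0.116 FPKM in Pfeiffer with DMSO, while KARPAS-422 had 20.3 to 23.5 FPKM with CPI-169 and 20.3 to 22.7 FPKM with DMSO. Among transporters outside the set, SLC6A9, a glycine importer, had 0.255 FPKM in GSK343 replicate 1 and 3.95 FPKM in replicate 2, against 1.28 and 1.54 FPKM with DMSO in Pfeiffer.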
